A study of Mus musculus with 6 samples.

Results

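The response to interferon beta (IFN-beta) was followed in NIH3T3, an established line of mouse fibroblasts, with a negative control siRNA. Its libraries were chosen by their titles and make up 3 of the 6 libraries of the series, namely 1 untreated library and 2 libraries with IFN-beta. Cells were grown in DMEM with donor bovine serum, transfected with the negative control (NC) siRNA by Lipofectamine 2000, and after 48 h either left without IFN-beta or given mouse recombinant IFN-beta (100 units/ml) during 4 h. The other 3 libraries hold the same design with an siRNA against SPT6, a transcription elongation factor and histone chaperone, and enter here through the estimate of the spread and through 1 comparison. Because the untreated library is titled 0 h and the labels name none taken at 4 h without the cytokine, effects of time and of IFN-beta cannot be told apart. The labels do not say whether the IFN-beta libraries came from separate cultures, so the p-values measure nothing beyond the spread among these libraries, part of which may be technical.

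As background, IFN-beta is a secreted antiviral cytokine. It binds a receptor made of the Ifnar1 and Ifnar2 products, which activates the kinases Jak1 and Tyk2. These phosphorylate STAT proteins, which join Irf9 in a complex (ISGF3) that binds interferon-stimulated response elements in the promoters of interferon-stimulated genes. The products of those genes sense viral nucleic acid, block translation and viral assembly, present antigen, and feed back on the receptor.

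Gene counts came to 11968565 in the untreated library, 13951889 in IFN-beta replicate 1 and 17596498 in IFN-beta replicate 2. Supt6, the gene of SPT6, stood at 175, 177 and 189 CPM (read counts scaled to the size of the library) in that order. Where 3 values of a gene are given below without labels, they are in the same order: untreated, IFN-beta replicate 1, IFN-beta replicate 2. All 12 fibroblast markers listed were tested, with a summed level of 18200 to 21100 CPM. Of 14 macrophage and dendritic cell markers 5 were tested, with a summed level of 8.31 to 11.8 CPM, and Itgam, Spi1 and Tyrobp were at 0. The summed level was 0.329 to 0.534 CPM for 11 lymphocyte markers, 0.575 to 0.903 CPM for 10 epithelial markers and 1.78 to 4.22 CPM for 9 endothelial markers. Cd3e, Epcam and Krt5 were at 0 in all 3 libraries. In RNA from whole cultures, more cells that express a gene and more RNA per cell cannot be told apart.

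A total of 18 genes were called, all of them higher with IFN-beta. They were the chemokine genes Cxcl10 and Ccl2, the GTPase genes Irgm1, Irgm2 and Mx2, the PYHIN genes Ifi203, Ifi205 and AI607873, the transcription factor genes Irf7 and Irf9, the ubiquitin ligase genes Trim21, Trim25 and Dtx3l, and Helz2, Rtp4, Apol9a, Apol9b and Cd274. These 18 are 0.137% of the 13185 genes tested with edgeR's quasi-likelihood test (Benjamini-Hochberg adjusted p under 0.05 over all genes). In this fit, which has no replicate block, no gene was called lower (0%). At an unadjusted edgeR p under 0.05, 388 genes (2.94%) lay lower and 698 (5.29%) higher. With the replicate number as a block edgeR called 637 higher and 320 lower, but the labels do not say that the numbers pair the libraries. DESeq2 called 9 lower and limma-voom called 0. With no count filter edgeR called 6 lower, and with replicate 1 or replicate 2 of SPT6 siRNA with IFN-beta left out it called 1 lower and 51 or 44 higher. Of the 18, 17 are on a list of 173 interferon-stimulated genes, of which 148 were tested; Ccl2 is the one outside it. Without IFN-beta replicate 1 the fit called 16 genes and Apol9a, Irf7, Cd274, Ifi205, Irf9 and Trim21 were no longer among them (adjusted p 0.0612 to 0.102); without replicate 2 it called 21, and Cd274 (adjusted p = 0.062) and Ifi205 (adjusted p = 0.0558) were not among them. Ccl2, Helz2, Ifi203, Irgm1 and Trim25 were called in all 13 alternative fits.

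A second measure is the number of genes at least 2-fold apart from the untreated library in each of the IFN-beta libraries, which involves no test. By this measure 282 genes (2.14% of those tested) were higher and 184 (1.4%) lower; scaled by library size alone, the split was 253 and 263. Of the 148 tested interferon-stimulated genes, 107 were 2-fold higher in both libraries, 0 were 2-fold lower and 41 were neither. The remaining 175 of the 282 were among the 13037 genes outside the list. Of the 148, 22 had at most 3 untreated counts and could pass the count filter only through other libraries. The groups below hold such members too, so their counts of genes 2-fold higher are descriptions only. The shares over all genes tested to set beside each group are 2.14% 2-fold higher, 1.4% 2-fold lower and 0.137% called. With IFN-beta replicate 2 alone, 590 genes were 2-fold higher and 921 lower; with replicate 1 alone, 423 were higher and 288 lower.

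Both IFN-beta libraries lay above the untreated library for 136 of the 148 interferon-stimulated genes, against 4639 (35.2%) of all genes tested, and both lay below it for 4, against 5021 (38.1%) of all. The median log2 difference over the 148 was 2.94, with quartiles of 1.37 and 5.22, where the median over all genes tested was -0.01. For 22 members with at most 3 untreated counts the ratio of counts, or its bound, can stand in for the fitted value, and the median was then 2.87. Counts in members of the list took up 0.349% of all gene counts untreated (Wilson 95% interval 0.3457% to 0.3524%), 1.97% (1.966% to 1.981%) in IFN-beta replicate 1 and 1.26% (1.252% to 1.262%) in replicate 2. These intervals cover counting error only, and the share was several times the untreated one in both IFN-beta libraries.

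**Figure D1:**
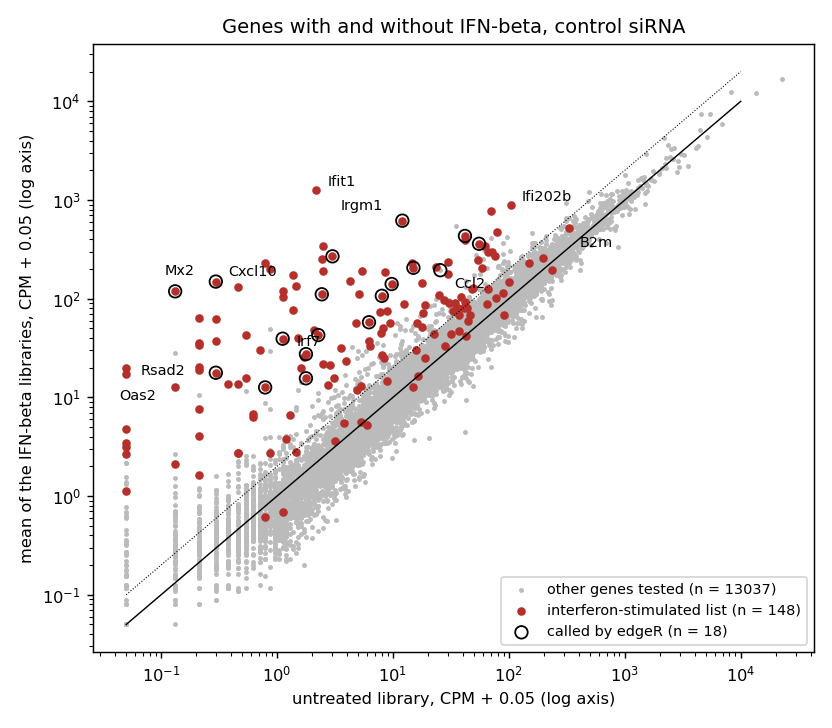
CPM of each tested gene in the untreated library (x axis, log scale) against the mean of the 2 IFN-beta libraries (y axis, log scale), both with 0.05 added. Red points are the 148 tested interferon-stimulated genes, grey points the other 13037 genes, rings the 18 genes called by edgeR; the solid line marks equal levels and the dotted line a 2-fold difference. The red points lie mostly above the dotted line, and farthest above it at the left.

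Cxcl10, which encodes a ligand of Cxcr3, a chemokine receptor of T cells, had 3, 2281 and 2131 counts. Its level was 0.25 CPM untreated, 172 CPM in replicate 1 and 126 CPM in replicate 2, a log2 difference of 9.18 ± 0.53 (SE; adjusted p = 0.0111, edgeR). Mx2, of the family of antiviral dynamin-like GTPases, had 1, 1932 and 1548 counts (0.08, 145.5 and 91.9 CPM; adjusted p = 0.036, edgeR). The locus on chromosome 16, 97535308 to 97560900, is annotated as a polymorphic pseudogene in GENCODE for GRCm38. In both genes the untreated level was close to the detection limit of the library, where 1 count equals 0.0822 CPM, so the size of the ratio rests on 1 to 3 counts.

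Irgm1, an immunity-related GTPase that acts on membranes and autophagy, stood at 12, 752 and 483 CPM, a log2 difference of 5.68 ± 0.49 (adjusted p = 0.0226, edgeR). Irgm2 stood at 2.96, 330 and 208 CPM (6.50 ± 0.60, adjusted p = 0.0413, edgeR). Rtp4, a chaperone-like membrane protein gene with antiviral activity, stood at 2.38, 134 and 87.7 CPM (5.53 ± 0.53). Replicate 1 was the higher of the IFN-beta libraries in each of these genes, and neither library came near the untreated level.

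Ccl2, a chemokine gene that recruits monocytes (chromosome 11, 82035571 to 82037453), stood at 25.6 CPM untreated, 197.5 CPM in replicate 1 and 191 CPM in replicate 2. Its log2 difference was 2.93 ± 0.22 (adjusted p = 0.0171, edgeR), and the IFN-beta libraries were nearly level. Helz2, a helicase that acts as a nuclear receptor coactivator, rose from 41.7 CPM to 475 and 390 CPM (3.37 ± 0.27, adjusted p = 0.0171, edgeR). Cd274, which encodes the immune checkpoint ligand PD-L1, rose from 1.73 CPM to 16.1 and 15.0 CPM (3.16 ± 0.34, adjusted p = 0.0436, edgeR). Ccl2 and Cd274 had the smallest log2 gaps between the IFN-beta libraries among the 18 called genes.

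Apol9a and Apol9b, paralogs of the apolipoprotein L family on chromosome 15, rose from 1.73 CPM to 31.9 and 23 CPM and from 0.25 CPM to 19.5 and 16 CPM. Close copies make the counts of each uncertain, and reads that align to both were not measured; the same holds for Mx1 and Mx2, Tgtp1 and Tgtp2, and the genes of the Oas1 and PYHIN clusters.

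Promoter sequences show one feature that the choice of libraries did not use. RefSeq promoters for GRCm38.p6, 250 bases before to 50 after the annotated start, were found for 15 of the 18 called genes (83.3%) and for 119 of the 148 interferon-stimulated genes (80.4%). They were searched on both strands for GAAANNGAAA, the core of the interferon-stimulated response element, where N is any base. It occurred in 9 of the 15 called genes (60%), in 59 of the 119 interferon-stimulated genes (49.6%) and in 1131 of the 32851 promoters of the table (3.44%). Of the listed genes that were not 2-fold higher in both libraries, 14 of the 35 with a promoter held it (40%). A second motif, TTCNNNGAA, the core of the element bound by STAT dimers, occurred in 1 of the 15 (6.67%), in 21 of the 119 (17.6%) and in 8.3% of all promoters. Genes were scored as holding a motif if any annotated start did, whereas the shares of the table are over single promoters. Sites of the first motif can overlap each other, and sites of both motifs can share bases. A match is a description of the letters and shows no binding.

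Shown here are the stretches around the matches of 7 called genes and of 3 genes with large differences that were not called, with the matches in capitals; where the match lies on the other strand it reads as runs of TTTC. Each is printed 5′ to 3′ on the strand of its gene, from RefSeq, GRCm38.p6.
Cxcl10 (chr5:92349073-92349122, minus strand): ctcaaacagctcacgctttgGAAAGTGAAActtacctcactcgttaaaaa
Irgm1 (chr11:48871421-48871470, minus strand): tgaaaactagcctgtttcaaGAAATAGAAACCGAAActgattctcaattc
Irgm2 (chr11:58214893-58214942, plus strand): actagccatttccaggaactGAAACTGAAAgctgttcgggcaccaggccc
Ifi203 (chr1:173942498-173942547, minus strand): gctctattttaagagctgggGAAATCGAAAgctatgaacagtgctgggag
AI607873 (chr1:173741821-173741870, minus strand): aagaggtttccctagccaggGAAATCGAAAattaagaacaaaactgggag
Ifi205 (chr1:174031860-174031909, minus strand): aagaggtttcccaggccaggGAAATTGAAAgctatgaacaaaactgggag
Apol9b (chr15:77729015-77729070, plus strand): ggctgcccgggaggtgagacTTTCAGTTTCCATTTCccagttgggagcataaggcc
Ifit1 (chr19:34640765-34640833, plus strand): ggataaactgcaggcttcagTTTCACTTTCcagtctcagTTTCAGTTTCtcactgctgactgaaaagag
Rsad2 (chr12:26456543-26456592, minus strand): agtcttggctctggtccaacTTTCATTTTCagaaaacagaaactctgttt
Isg15 (chr4:156200855-156200916, minus strand): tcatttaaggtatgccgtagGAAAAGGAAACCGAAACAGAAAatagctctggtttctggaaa

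The match of Cxcl10 begins 213 bases before the annotated start, that of Irgm1 30 bases before it. In Irgm1 and Apol9b 2 matches overlap, in Isg15 3 overlap in one run, and in Ifit1 2 stand apart. The stretch printed for Apol9b is identical in Apol9a (chr15:77411104-77411159). The matches of AI607873 and Ifi205, both in the PYHIN cluster, lie in stretches of near-identical letters. The windows of Helz2, Trim25, Irf7, Cd274, Dtx3l and Irf9 held no match, and both matches of Trim21 lay in the 50 bases after its start. Among uncalled genes that were also looked up, Oasl2 and Nr4a1 held no match and Gbp7 held 1.

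The receptor and kinase genes were near their untreated levels. Ifnar1 stood at 87.8, 92.6 and 77.0 CPM, a log2 difference of -0.05 ± 0.23. Ifnar2 stood at 37.4, 41.1 and 28.6 CPM. For both, the untreated level lay between the IFN-beta libraries, and leaving out 1 of these turns the sign. Jak1 stood at 289.6, 312 and 301 CPM and Tyk2 at 33.6, 29.5 and 23.4 CPM; none of the 4 genes was called.

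Among the genes of the transcription factor complex, Irf9, the DNA-binding subunit of ISGF3, passed the test. It rose from 6.16 CPM to 67.5 and 47.9 CPM, a log2 difference of 3.22 ± 0.36 (adjusted p = 0.0436, edgeR). Stat2, another subunit, stood at 29.8, 273 and 193 CPM (2.97 ± 0.37, adjusted p = 0.0806, edgeR). Of the 14 members of the receptor and JAK-STAT list 3 were 2-fold higher in both libraries, Irf9 and Stat2 among them; the list's median log2 difference was -0.08. Stat3, which transmits other cytokine signals, stood at 308.5, 276.5 and 185 CPM and was not called.

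Feedback inhibitors differed among themselves. Usp18, which removes ISG15 and blocks the receptor, stood at 2.47, 251 and 129 CPM (log2 difference 6.26 ± 0.82, adjusted p = 0.139, edgeR). Socs1, an inhibitor of JAK kinases, stood at 8.05, 22.6 and 31.3 CPM and was among the few genes of the pathway with the higher value in replicate 2. Socs3 stood at 43.8, 42.2 and 54.1 CPM, with the untreated value between the other two. None of the 5 members was called, and 2 were 2-fold higher in both libraries.

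Of the interferon regulatory factors, Irf7, which amplifies interferon production, had the largest difference. It rose from 1.07 CPM to 47.1 and 31.5 CPM (log2 5.19 ± 0.55, adjusted p = 0.0432, edgeR). Irf1 stood at 30.2, 90.5 and 92.0 CPM (1.59 ± 0.22, adjusted p = 0.105, edgeR), and Irf5 at 0.99, 2.86 and 2.67 CPM. Irf3, the factor that first switches on interferon genes, stood at 22.4, 19.7 and 18.3 CPM. Of 6 tested members 3 were 2-fold higher in both libraries, and the median log2 difference was 1.16. Interferon genes themselves were almost silent: of 21 in the counts 1 was tested, and Ifnb1 had 0 counts in all 3 libraries.

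**Figure D2:**
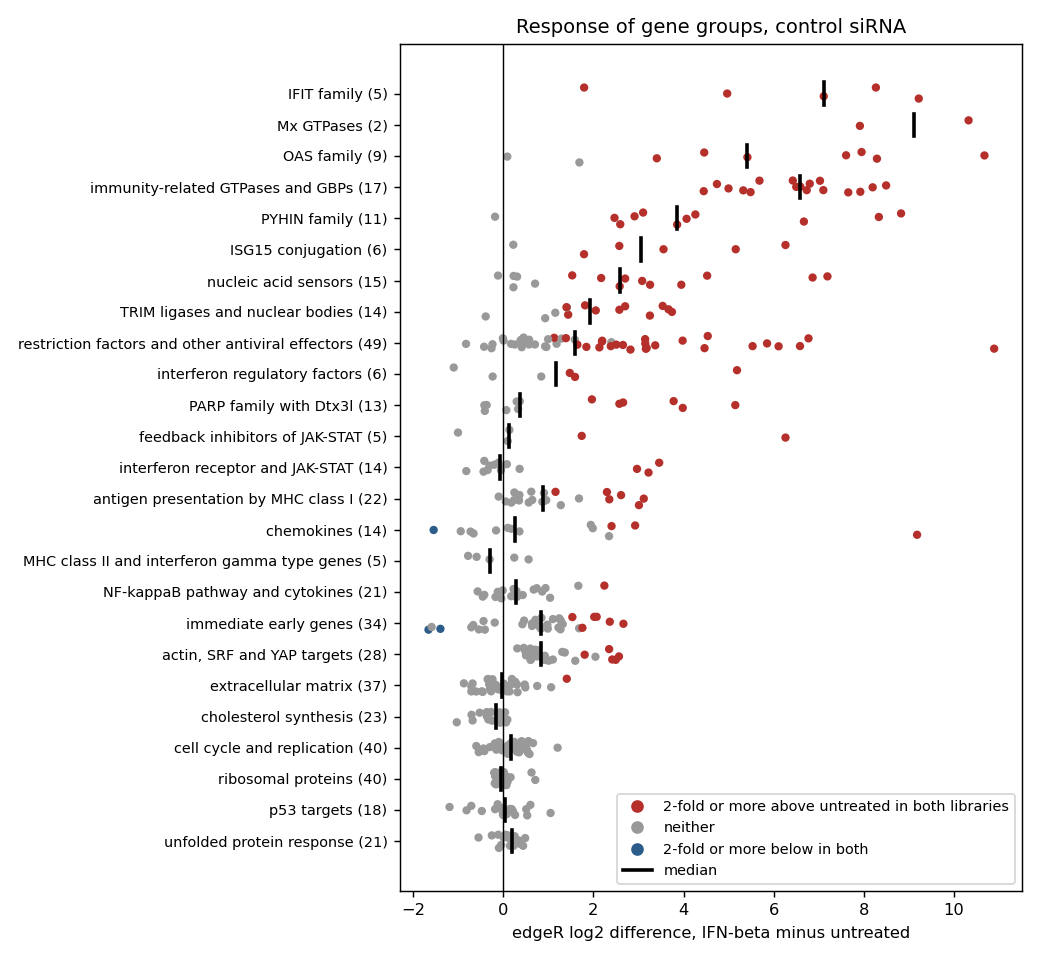
edgeR log2 difference between IFN-beta and untreated (x axis) for the tested members of each gene group (rows, number tested in parentheses). Each point is a gene, red where both IFN-beta libraries were 2-fold or more above the untreated one, blue where both were 2-fold or more below, grey otherwise; vertical jitter only separates points, and black bars are medians. The antiviral groups in the upper rows reach medians of 7.11 (IFIT) and 9.12 (Mx). Immediate early genes and targets of actin signalling, SRF and YAP have medians of 0.84 and 0.83, and the rows below these have medians near 0.

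Sensors of viral nucleic acid were 2-fold higher in both libraries in 10 of 15 tested members, and the group's median log2 difference was 2.58. Ddx58, which encodes the RNA sensor RIG-I, stood at 41.4, 476 and 316 CPM (3.26 ± 0.46, adjusted p = 0.123, edgeR). Ifih1, which encodes the related sensor MDA5, had 2, 57 and 63 counts, which is 24.4 times the untreated level (95% interval from counting alone, 6.76 to 202). Eif2ak2, the kinase PKR that halts translation on double-stranded RNA, stood at 78.3, 547 and 392 CPM. Adar, which edits double-stranded RNA, stood at 65.7, 339.5 and 253 CPM, and Mb21d1, the DNA sensor cGAS, at 17.9, 43.1 and 60.4 CPM. Trim25, the ligase that acts on RIG-I and the 1 called gene of this group, rose from 55.2 CPM to 382 and 338 CPM (2.70 ± 0.24, adjusted p = 0.0226, edgeR). Sensor genes thus spanned starting levels from a few counts, as in Ifih1, to 78.3 CPM, as in Eif2ak2.

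The IFIT genes encode proteins that bind viral RNA and block its translation. All 5 tested members were 2-fold higher in both libraries, 0 were called, and their median log2 difference was 7.11. Ifit1 stood at 2.14, 1724 and 833 CPM, and Ifit3 at 2.47, 494 and 190 CPM. The relative I830012O16Rik had 9, 4133 and 2544 counts. Ifit2 started far higher, at 58.5 CPM, and stood at 254 and 152 CPM (1.79 ± 0.55). Replicate 2 lay below replicate 1 in all 5.

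Mx1, the relative of Mx2, had 3, 1105 and 686 counts, which is 251 times the untreated level (86 to 1220 from counting alone). The OAS family is named for enzymes that make short oligoadenylates when they bind double-stranded RNA. Of 9 tested members of the OAS group, 7 were 2-fold higher in both libraries and 0 were called. With at most 3 untreated counts, 5 of the 9 could be tested only through other libraries. Oas2 had 0, 327 and 161 counts, at least 69.3-fold higher against a floor of 3 counts per library. Oasl2 had 5, 2482 and 1300 counts, and Oas1b, annotated as a polymorphic pseudogene in GENCODE, had 2, 617 and 366.

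Among the immunity-related GTPases and guanylate-binding proteins, which attack vacuoles of intracellular pathogens, all 17 tested members were 2-fold higher in both libraries and 2, Irgm1 and Irgm2, were called. Their median log2 difference was 6.59. Of the 17, 4 had at most 3 untreated counts and could be tested only through other libraries, so the count of 17 supports nothing by itself. Igtp stood at 2.38, 337 and 172 CPM. Gbp7 stood at 1.32, 220 and 126 CPM (7.03 ± 0.84, adjusted p = 0.108, edgeR), and Gbp2 at 8.55, 260 and 114 CPM. Gbp5 had 0, 67 and 19 counts, at least 12.5-fold higher. Replicate 2 was below replicate 1 in all 17 members, with a median difference of -1.31 on the log2 CPM scale.

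Isg15 encodes a ubiquitin-like modifier. It stood at 4.19, 203 and 97.5 CPM, and its activating enzyme Uba7 at 6.16, 51.8 and 21.9 CPM. The conjugating enzyme Ube2l6 stood at 16.2, 68.2 and 44.1 CPM and the ligase Herc6 at 4.77, 73.6 and 38.8 CPM. Of the 6 members of this pathway 5 were 2-fold higher in both libraries and 0 were called.

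Restriction factors, which block single steps of viral replication, differed among themselves: of 49 tested members 25 were 2-fold higher in both libraries and 5 (Apol9a, Apol9b, Cd274, Helz2 and Rtp4) were called, with a median log2 difference of 1.59. Rsad2, which encodes viperin, had 0, 330 and 249 counts, at least 80.4-fold higher. Its genomic neighbour Cmpk2 had 2, 302 and 261 counts. Bst2, which encodes tetherin, stood at 3.53, 41.7 and 21.2 CPM, and Zc3hav1, the zinc-finger antiviral protein ZAP, at 75.5, 287 and 256 CPM. The IFITM genes, whose products block viral entry, already had high levels untreated. Ifitm2 stood at 233, 227 and 163 CPM and Ifitm3 at 196.5, 326 and 189 CPM, so that the untreated level of Ifitm3 lay between the IFN-beta libraries. Among the Schlafen genes, Slfn8 stood at 1.32, 104 and 49.3 CPM while Slfn5 stood at 16.4, 17.1 and 15.8 CPM.

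TRIM proteins are ubiquitin ligases, several of which restrict viruses. Of 14 tested members 10 were 2-fold higher in both libraries, 2 (Trim21 and Trim25) were called and the median log2 difference was 1.93. Trim21, a cytosolic antibody receptor, rose from 7.97 CPM to 126 and 87.4 CPM (3.74 ± 0.42, adjusted p = 0.0436, edgeR). Pml, the scaffold of nuclear bodies, stood at 38.2, 107 and 100.2 CPM. In the PARP group 6 of 13 members were 2-fold higher in both libraries and 1 was called, with a median of 0.37. That one, Dtx3l, rose from 15.0 CPM to 246.5 and 165 CPM (3.78 ± 0.41, adjusted p = 0.0436, edgeR). Its partner Parp9 stood at 14.5, 286 and 171.5 CPM, and Parp14 at 5.34, 248 and 132 CPM.

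The PYHIN genes encode nuclear and cytosolic DNA-binding proteins, and 10 of 11 tested members were 2-fold higher in both libraries. The 3 that were called were Ifi203, from 9.70 CPM to 151 and 131 CPM (3.86 ± 0.29, adjusted p = 0.0171, edgeR), AI607873, from 2.22 CPM to 47.8 and 37.8 CPM, and Ifi205, from 0.74 CPM to 13.9 and 11.2 CPM. Ifi202b was the most abundant, at 104, 1017 and 776 CPM (adjusted p = 0.0918, edgeR). Pydc3 and Pydc4 had 0 counts untreated and were at least 19.3-fold and 13.7-fold higher. Aim2, the inflammasome sensor of DNA, was the member that was not 2-fold apart, at 5.92, 7.30 and 3.21 CPM. With at most 3 untreated counts, 3 of the 11 could be tested only through other libraries.

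Antigen presentation on MHC class I showed smaller differences. Both IFN-beta libraries were above the untreated one in 20 of 22 tested members, against 35.2% of all genes tested. Of the 22, 6 were 2-fold higher in both libraries, against 2.14% of all genes tested. In this group 0 were called, and the median log2 difference was 0.88. The peptide transporter gene Tap1 stood at 17.8, 185 and 102 CPM, the proteasome subunit gene Psmb9 at 3.04, 21.2 and 10.0 CPM, and Nlrc5, a transactivator of class I genes, at 2.71, 16.1 and 10.7 CPM. The light chain gene B2m stood at 329, 600.0 and 429 CPM (0.64 ± 0.29) and the heavy chain gene H2-K1 at 37.2, 60.1 and 35.0 CPM. Of 5 tested class II and interferon gamma type genes, none was 2-fold apart.

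Chemokine genes ranged widely: of 14 tested, 2 were called higher (Cxcl10 and Ccl2). In both libraries 3 were 2-fold higher and 1 was 2-fold lower, against 2.14% and 1.4% of all genes tested. Ccl7, the neighbour of Ccl2, stood at 10.8, 67.5 and 46.5 CPM (2.40 ± 0.36, adjusted p = 0.123, edgeR). Cxcl1, a neutrophil chemokine, was the lower one, at 12.2, 3.61 and 4.75 CPM (-1.54 ± 0.35, adjusted p = 0.311, edgeR). Ccl5, a common interferon target, had 0 counts in all 3 libraries. Of 21 tested genes of the NF-kappaB pathway and its cytokines 1, Il15ra, was 2-fold higher in both libraries, and the median was 0.28; the inhibitor gene Nfkbia stood at 24.5, 28.2 and 27.2 CPM.

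**Figure D3:**
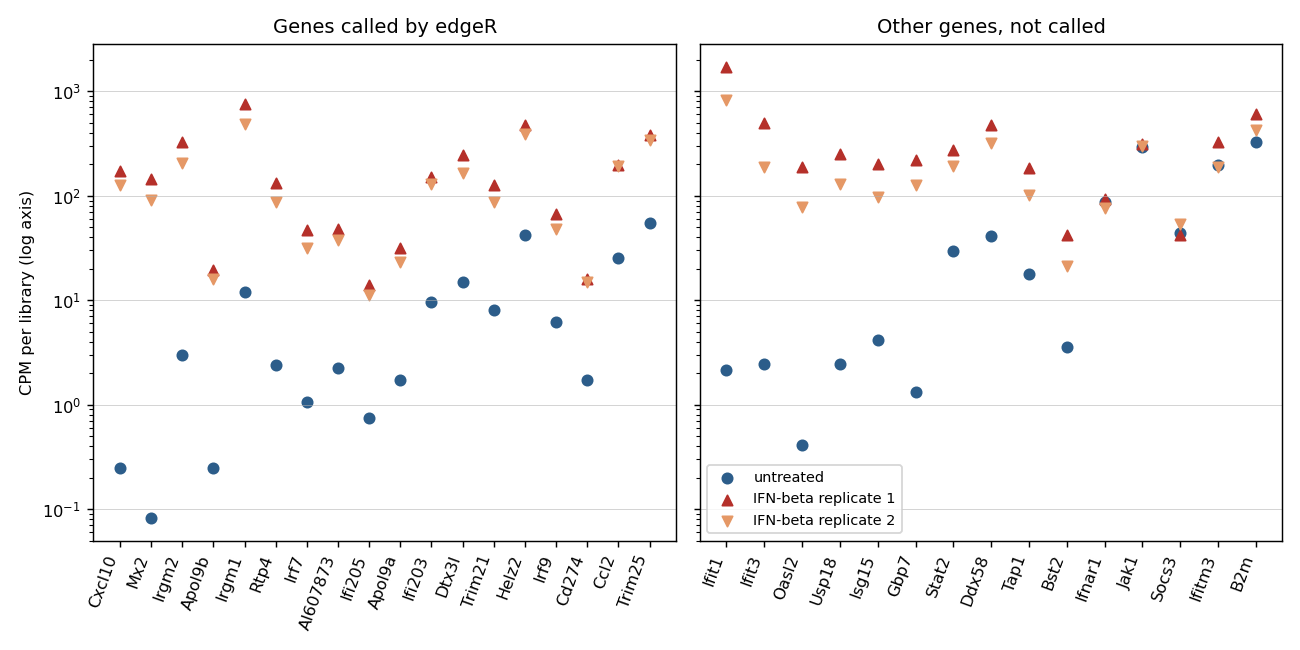
CPM in each of the 3 libraries (y axis, log scale) for the 18 called genes (left) and for 15 genes that were not called (right). Circles are the untreated library, upward triangles IFN-beta replicate 1 and downward triangles replicate 2. In the left panel both triangles lie close together and far above the circle; Ifit1, Ifit3 and Oasl2 on the right have larger gaps between the triangles, and Ifnar1, Jak1, Socs3 and Ifitm3 have all marks close together.

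The size of the difference went with the untreated level. The 22 interferon-stimulated genes with 0 to 3 untreated counts were all 2-fold higher in both libraries, with a median log2 difference of 7.63, or 6.25 with each at its ratio or bound. Genes in this class could pass the count filter only through other libraries, so its count supports nothing; of all 277 tested genes in it 23.5% were 2-fold higher in both. Of 38 members with 4 to 30 untreated counts 32 were 2-fold higher in both libraries (median 4.85), of 45 with 31 to 300 counts 32 were (median 2.58), and of 43 with over 300 counts 21 were (median 1.18). Among all tested genes in these classes the shares were 4.28%, 1.99% and 0.869%. Their median log2 differences were -0.27, -0.09 and 0.04, against 1.34 over all tested genes with 0 to 3 untreated counts. In the class of 4 to 30, members with fewer than 10 untreated counts, such as Oasl2 with 5, also passed only through other libraries. The filter therefore fixed part of that class's count and part of the trend with the untreated level. The classes were also cut on the untreated library, which is the denominator of each difference, so the trend is a description only.

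Levels per kilobase of exon rank the RNA of genes with their length allowed for, which raw CPM does not do. Length is that of all GENCODE exons of a gene together, and the length of the expressed transcripts was not measured. B2m ranked 1 of the 148 in every library, at 383 CPM per kb untreated and 698 and 499 CPM per kb with IFN-beta. Ifit1 was at rank 88 untreated and at ranks 2 and 3 with IFN-beta, at 0.804, 649 and 313 CPM per kb. Isg15 was at rank 47, then at 7 and 6 (5.54, 268 and 129 CPM per kb) and Ifi202b at 4, then at 3 and 2. Ifitm2 and Ifitm3, ranked 2 and 3 untreated, were at ranks 5 and 4 in both IFN-beta libraries.

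Genes 2-fold higher in both libraries often lay side by side in the genome. Of 280 positioned genes that were 2-fold higher in both libraries, 97 (34.6%) had a next tested gene on the chromosome that was 2-fold higher too, against 3.96% of all 13035 positioned genes; for the genes that were 2-fold lower the share was 7.87% of 178, against 2.7%. Positions are those of GENCODE for GRCm38. In the Ifit cluster (chromosome 19, 34550694 to 34650009) all 6 tested genes were 2-fold higher in both libraries, among them 2010002M12Rik with 10, 572 and 279 counts. In the PYHIN cluster (chromosome 1, 173350879 to 174031810) 10 of 11 were, and around Irgm1 (chromosome 11, 48861968 to 49096974) 7 of 8. Both Gbp clusters (chromosome 3, 142493978 to 142638008, and chromosome 5, 105014150 to 105346472) had 5 of 5, and the Oas cluster (chromosome 5, 120730333 to 120907521) had 5 of 6. Not every cluster did so: 3 of 6 tested Schlafen genes (chromosome 11, 82951349 to 83215154) and 0 of 3 Ifitm genes (chromosome 7, 140954837 to 141010770) were 2-fold higher. Whether neighbours share reads, as near-identical paralogs or overlapping gene models may, was not tested. In the Oas cluster, Oas2, Oas3, Oas1b, Oas1g and Oas1a had 0, 7, 2, 1 and 2 untreated counts. Such genes could pass the count filter only through other libraries, and silent members were not tested. The cluster counts over tested genes are therefore descriptions and support nothing by themselves.

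Outside the antiviral groups, targets of actin signalling, SRF and YAP mostly stood above the untreated library, and 0 were called. Both IFN-beta libraries were above it in 27 of 28 members, against 35.2% of all genes tested. Of the 28, 5 were 2-fold higher in both, against 2.14% of all, and the median log2 difference was 0.83. Ctgf, a matricellular protein gene, stood at 69.8, 360 and 467.5 CPM (2.57 ± 0.32, adjusted p = 0.076, edgeR). Cyr61 stood at 61.1, 253 and 370.3 CPM. In both genes replicate 2 was the higher library, the reverse of the order in most interferon-stimulated genes. Actb stood at 4514, 7474 and 7310 CPM.

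Of 34 tested immediate early genes 6 were 2-fold higher in both libraries, against 2.14% of all genes tested. A further 2 were 2-fold lower, against 1.4% of all, and 0 were called. Dusp4, a MAP kinase phosphatase, stood at 5.92, 21.2 and 53.9 CPM, and Dusp5 at 8.14, 30.6 and 37.9 CPM (2.07 ± 0.36, adjusted p = 0.164, edgeR). Fos stood at 1.07, 3.76 and 2.49 CPM. The orphan nuclear receptor genes were the lower ones: Nr4a1 stood at 45.2, 16 and 12.6 CPM (-1.66 ± 0.29, adjusted p = 0.174, edgeR) and Nr4a2 at 22.8, 8.66 and 8.67 CPM. Both IFN-beta libraries were below the untreated one in each, as they were in 38.1% of all genes tested.

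Among genes with an average log2 CPM of 3 or more and an unadjusted p under 0.05, the largest differences below the untreated library were those of Ranbp3l, at 42.1, 6.48 and 2.26 CPM (-3.28 ± 0.75, adjusted p = 0.407, edgeR), and Dio2, the deiodinase that activates thyroid hormone, at 42.7, 10.7 and 7.84 CPM (-2.21 ± 0.48, adjusted p = 0.336, edgeR). Nadk2, the mitochondrial NAD kinase, stood at 232, 95.2 and 77.3 CPM, and the aggrecanase gene Adamts5 at 172, 74.2 and 55.2 CPM (-1.41 ± 0.26, adjusted p = 0.184, edgeR). Hdac11, Usp2, Pax9, Osbp2 and Mrgprf had log2 differences between -1.57 and -1.44. Of genes outside all lists that lay above the untreated library, Samd9l, an antiviral factor, stood at 34.9, 661 and 428 CPM (3.96 ± 0.57, adjusted p = 0.136, edgeR) and Sema7a, a membrane semaphorin, at 1.56, 11.4 and 17.2 CPM. None of these genes passed the test over all genes.

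**Figure D4:**
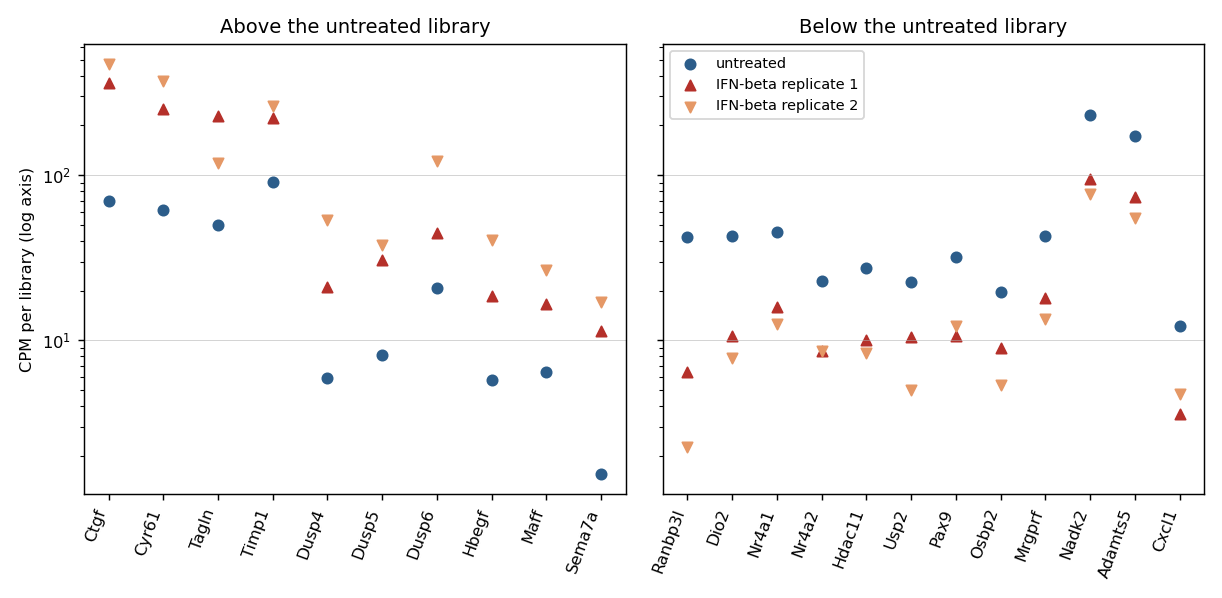
CPM in each of the 3 libraries (y axis, log scale) for genes that lay above (left) and below (right) the untreated library and belong to no antiviral group; none was called. Circles are the untreated library, upward triangles IFN-beta replicate 1 and downward triangles replicate 2. Both triangles lie on the same side of the circle in every gene shown; in Dusp4, Dusp6 and Ranbp3l they lie far from each other.

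None of 5 further groups had a called gene. The median log2 difference was -0.03 over 37 extracellular matrix genes, -0.15 over 23 genes of cholesterol synthesis, -0.06 over 40 ribosomal protein genes, 0.04 over 18 p53 targets and 0.20 over 21 genes of the unfolded protein response. These medians average the replicates: for cholesterol synthesis the median was 0.00 in replicate 1 and -0.42 in replicate 2, and for the extracellular matrix 0.05 and -0.26. The 1 member of these groups that was 2-fold higher in both libraries was Timp1, an inhibitor of matrix proteases, at 90.9, 223 and 260.3 CPM. Of the fibroblast markers, the growth factor receptor gene Pdgfra was 2-fold lower in both libraries, at 874, 425 and 236.5 CPM (-1.40 ± 0.53, adjusted p = 0.592, edgeR).

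The IFN-beta libraries differed from each other in a way that touches most values above. Replicate 2 was below replicate 1 in 141 of the 148 interferon-stimulated genes, with a median difference of -0.72 on the log2 CPM scale against 0.02 over all genes tested. The median log2 difference of the list from untreated was 3.12 in replicate 1 and 2.39 in replicate 2. In the cell cycle and replication list replicate 2 was above replicate 1 in 39 of 40 genes, with a median of 0.70, and Ccnd1, which encodes cyclin D1, stood at 160 CPM untreated and at 187.5 and 549 CPM. Rn45s, a ribosomal RNA precursor, took 0.841%, 1.09% and 1.29% of gene counts. The part of these values in the difference between the libraries was not tested. With SPT6 siRNA, replicate 2 also had the lower share of counts in interferon-stimulated genes, 0.98% against 1.56%.

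**Figure D5:**
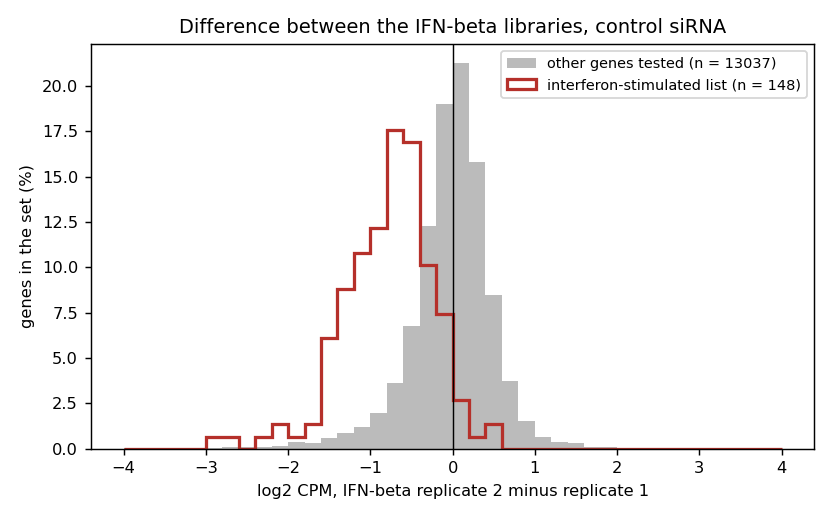
Difference in log2 CPM between IFN-beta replicate 2 and replicate 1 (x axis, bins of 0.2) as the percentage of genes in each set (y axis). The red outline is the 148 tested interferon-stimulated genes, the grey area the other 13037 genes. The outline is shifted to the left, with a median of -0.72.

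Fitted without a replicate block, edgeR called no gene for a difference between the responses with control siRNA and with SPT6 siRNA (0%); 49 genes (0.372%) reached an unadjusted p under 0.05, and DESeq2 and limma-voom each called 0. Among the 18 genes called here, Ccl2 differed by 0.88 ± 0.28 on the log2 scale, higher with control siRNA (log2 2.94 and 2.90 in the replicates, against 1.99 and 2.09 with SPT6 siRNA; unadjusted p = 0.0164, adjusted p = 1, edgeR). Apol9b differed by 2.09 ± 0.71 in the same direction (unadjusted p = 0.0227, adjusted p = 1, edgeR). It had 3 untreated counts with control siRNA, so the size of this difference rests on few counts. Cd274 differed by -1.30 ± 0.52, with the larger response under SPT6 siRNA (unadjusted p = 0.0425, adjusted p = 1, edgeR). For Helz2, Ifi203 and Trim25 the differences were 0.29 ± 0.32, 0.23 ± 0.35 and 0.22 ± 0.30. The 18 genes were chosen by their values in the control siRNA libraries, which also enter these differences. The differences are therefore descriptions only.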

How the data were processed

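RNA was extracted with TRIzol, made into libraries with the Ovation SP Ultralow system on a Mondrian SP, and read paired-end on a HiSeq2000, as the labels' protocols state. The authors deposited raw, whole-number counts for 24062 gene symbols. Tools named in the submitters' processing notes are HTSeq 0.6.1p1, TopHat2 2.1.0 and DESeq2, with builds mm10 and GRCm38 and no roles. The annotation and the strand setting are not given in the sources used here; genes that overlap, also in antisense, therefore cannot be told apart. Of all reads counted, 33.3% to 38% fell in genes in the 3 libraries, 33.8% to 37.1% in no feature and 27.9% to 29.4% were not uniquely aligned; lines naming no gene stayed out of library sizes and tests.

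Filtering, scaling and tests were run in R 4.3.3. Promoter matches, levels per kilobase, classes by untreated count, genome neighbours and figures were made in Python. Genes were filtered by filterByExpr (count minimum 10), normalised by TMM and tested with edgeR 4.0.16 (estimateDisp, robust glmQLFit, glmQLFTest) on the 4 group means of all 6 libraries. Residual degrees of freedom, 1 from each pair of IFN-beta libraries, come from those groups only, and the single untreated library is assumed to vary like them. Log2 CPM for single libraries used a prior count of 2. For untreated counts of 0 the bound on a ratio used 3 counts per library as floor, and for counts of 1 to 3 its interval is the exact 95% Poisson one; both cover only the error of counting. The IFN-beta libraries were not duplicates (chi-square per degree of freedom 40.4 over 12878 genes). GENCODE positions were matched for 23612 symbols (98.1%).

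The comparison, gene lists and tests were chosen with earlier results of these data known. Named genes were all called genes, up to 5 tested members of each list with the smallest p and 3 with the highest mean CPM, the 10 largest falls and, outside the lists, the 10 largest rises with an unadjusted p under 0.05 and average log2 CPM no lower than 3, and a panel of interferon-stimulated genes. Other list members were named for their role, after their values were seen, and some genes under the rule are left out. Alternatives used DESeq2 1.42.0, limma-voom (limma 3.58.1), other scalings and filters, a replicate block and leaving out each IFN-beta library.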

Additional observations from a re-analysis of the deposited data

Results flagged for a closer look

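The labels' same contrast was also made with SPT6 siRNA, and 2 genes of the report lay on opposite sides of the untreated library under the siRNAs in every IFN-beta library, as did 1115 (8.46%) of all 13185 genes tested. Nr4a1, an immediate early nuclear receptor gene, had log2 differences of -1.49 and -1.82 with control siRNA and of 0.29 and 0.85 with SPT6 siRNA, a difference of responses of -2.26 ± 0.43 (SE; unadjusted p = 0.00148, adjusted p = 1, edgeR). Nr4a2, its relative, had -1.38 and -1.38 against 0.16 and 0.99, a difference of -2.03 ± 0.53 (unadjusted p = 0.0073, adjusted p = 1, edgeR). No difference passed the test over all genes, and each siRNA has 1 untreated library.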

How the results depend on the processing

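The number of genes called higher and lower (18 and 0) was 195 and 9 with DESeq2, 71 and 6 with no count filter, and 34 higher with only the control siRNA libraries; 5 were called higher with limma-voom and 11 by edgeR without the robust option. Leaving out 1 IFN-beta library of either siRNA gave 16 to 51 higher and 0 to 1 lower. With the replicate number as a block, 637 were called higher and 320 lower, and 4 genes differed between the siRNAs in place of 0. The labels do not say that the numbers pair the libraries. Same-numbered libraries deviated together (r = 0.56 over 13185 genes), but 2 groups of 2 cannot decide whether the numbers are a pairing. Both untreated libraries are titled replicate 1. In replicate 2, effects of IFN-beta and of the replicate number therefore cannot be told apart. The genes 2-fold lower in both libraries were 308 with no count filter. With 1 IFN-beta library left out, 423 to 590 were 2-fold higher and 288 to 921 lower. The median of interferon-stimulated genes was 2.47 to 3.22 over all alternatives. The cause of these changes was not tested.

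Signs turned in genes near 0. With library size only, which moved the median of all genes to -0.10, Jak1 was at -0.01 and Slfn5 at -0.08; with a stricter filter Slfn5 was at 0.00. With the block Ifnar1 was at 0.06, Ifnar2 at 0.11, Socs3 at -0.03 and Aim2 at 0.29. Leaving out 1 IFN-beta library put Ifitm3 at -0.07 to 0.73, Slfn5 at -0.06 to 0.06, H2-K1 at -0.10 to 0.69, Ifnar1 at -0.20 to 0.08, Ifnar2 at -0.40 to 0.14, Socs3 at -0.06 to 0.30 and Aim2 at -0.89 to 0.30.

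Depth limits the ratios of the 22 interferon-stimulated genes with 3 or fewer untreated counts.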
